A study of Mus musculus with 8 samples.

Results

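Hepatic stellate cells are the pericytes of the liver sinusoid, which store vitamin A as retinyl esters in lipid droplets while quiescent. After injury they turn into contractile, matrix-secreting myofibroblasts, the main source of scar collagen. Carbon tetrachloride (CCl4) is a hepatotoxin that liver cytochrome P450 enzymes convert to a reactive radical, and repeated doses give fibrosis. The comparison described here sets stellate cells taken from mice after 2 weeks of CCl4 against quiescent stellate cells taken at 0 hours, and it uses 4 of the series' 8 Affymetrix arrays, 2 in each group. All cells were primary hepatic stellate cells of BALB/c mice, an inbred strain, and both groups went to RNA without seeding. The other arrays hold cells after 4 weeks of CCl4, also unseeded, and cells kept in culture for 10 days, again 2 arrays each. The dose and route of CCl4, the animals' age and sex, and whether a group's arrays hold different animals are not given in the sources used here. A treatment protocol attached to all samples names valproic acid at 2.5 mM from shortly after seeding, while the labels of both groups compared say that the cells were not seeded.

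Levels are log2 RMA units, the robust multi-array average of the probes of a gene. The comparison covers 22180 genes, each represented by the probe set with the highest mean over the 8 arrays. A change is the 2-week mean minus the quiescent mean on the log2 scale, so 1 is a 2-fold rise, and it is given ± the standard error (SE) of limma's fit with 2 arrays a group. A gene was called, or past the threshold, at a Benjamini-Hochberg adjusted p under 0.05. "Rose" and "fell" are used for called genes. The fit was repeated 15 times under other settings, 8 of them leaving out 1 array each, and genes named as called were called in each fit that tested them unless a sentence says otherwise. The fit limited to genes with a mean above 5 log2 units did not test Atp6v0d2, Cd163, Dll4, Obp2a, Saa4 or Sox18. Since separate animals are not stated, p-values measure only how far replicate arrays spread, possibly for technical reasons. An exact permutation test of 2 arrays against 2 could not go below p = 0.333.

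After 2 weeks of CCl4, 1058 genes had changed, 4.77% of those tested, of which 520 (2.34%) were higher and 538 (2.43%) lower than in quiescent cells. At least 2-fold changes were seen in 309 rises and 296 falls, at least 4-fold in 84 and 63, and at least 8-fold in 23 and 17. The median change over all genes was 0.00. No called gene had overlapping arrays. Arrays also lay apart without a call. On both 2-week arrays 22% of all genes were higher than on both quiescent ones, and 21.6% were lower. Separate arrays are thus shared by all called genes and add no support for any 1 of them. They also mean that leaving out 1 array could not turn the sign of a called gene. All called genes kept their sign when any 1 array was left out, and 145 of the 520 rises (27.9%) and 60 of the 538 falls (11.2%) stayed called each time. Without 2-week replicate 1 the counts were 190 higher and 70 lower, and without 2-week replicate 2 they were 274 and 249. Without either 4-week array, which lends its spread to the fit, 315 genes were lower.

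**Figure D1:**
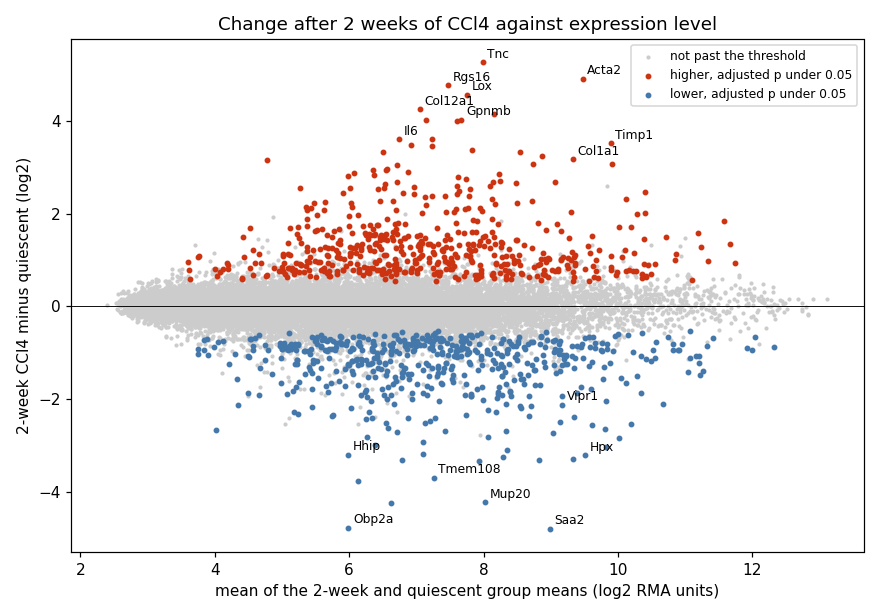
Change after 2 weeks of CCl4 (log2, 2-week minus quiescent group mean) against the mean level of both groups (log2 RMA units) for each of 22180 genes, with 520 called rises in red, 538 called falls in blue and genes not past the threshold in grey. The largest rise was Tnc at 5.28, and the largest falls were Saa2 at -4.80 and Obp2a at -4.78.

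Stellate cell markers were high in both groups, but transcripts of other liver cells were also present. The 15 stellate markers had array medians of 10.83 and 11.25 in quiescent cells and 10.80 and 11.16 at 2 weeks. Of these markers 4 rose (Col1a1, Col1a2, Col3a1 and Pdgfrb) and 2 fell (Ecm1 and Colec11). Changes were negative for 11 of the 15. The log2 of their summed level was 15.06 and 15.22 in quiescent cells and 15.03 and 15.15 at 2 weeks. On quiescent replicate 1 the hepatocyte markers summed higher, to 15.24, and on quiescent replicate 2 lower, to 14.38. Medians of 22 hepatocyte markers were 10.36 and 8.83 in quiescent cells and 7.73 and 7.93 at 2 weeks, and those of 22 sinusoidal endothelial markers 9.47 and 8.64 against 7.20 and 7.61. Medians of 20 macrophage markers overlapped, at 7.46 and 7.70 against 7.45 and 7.76. The log2 of their summed level was higher on both 2-week arrays, at 12.27 and 12.49 against 12.61 and 12.91. Lymphocyte and cholangiocyte medians stayed between 4.12 and 4.55. They lay under 4.75, which 95% of the readings of 1394 olfactory and vomeronasal receptor genes on the 8 arrays did not exceed. That value serves as a guide to background. The quiescent pair was the less alike: 565 genes differed more than 2-fold between its arrays, against 117 between the 2-week arrays. In these bulk samples fewer cells of a type and less RNA per cell cannot be told apart.

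**Figure D2:**
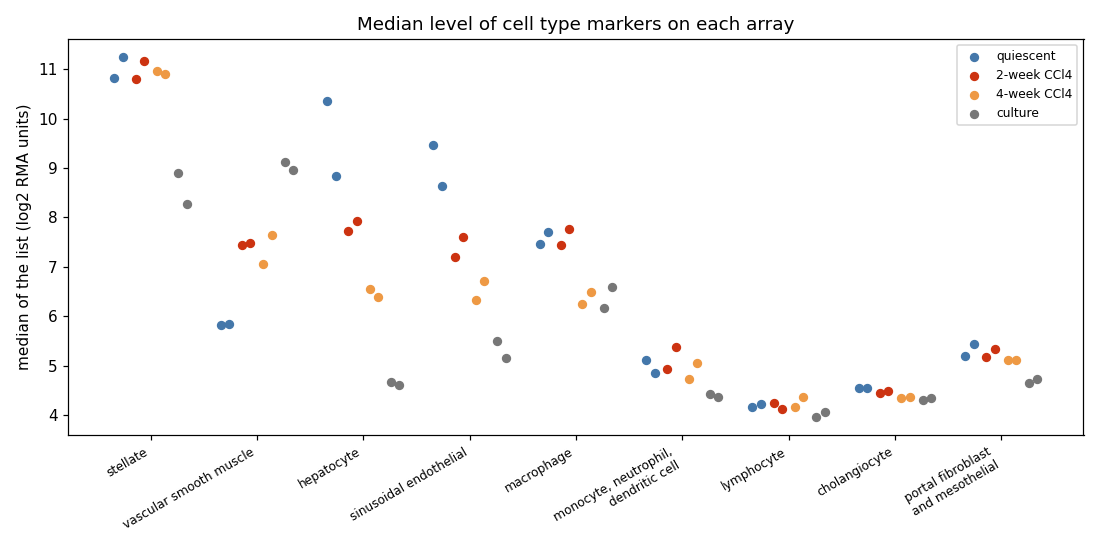
Median level of each cell type's marker list (log2 RMA units) on each of the 8 arrays, 1 point an array, coloured by group. Hepatocyte and sinusoidal endothelial medians were higher on both quiescent arrays than on both 2-week arrays, while stellate and macrophage medians overlapped.

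The largest rises included secreted matrix proteins, the contractile actin, and signalling genes. Tnc, which encodes the injury-associated glycoprotein tenascin C, read 4.95 and 5.76 log2 units in quiescent cells and 10.80 and 10.46 at 2 weeks. Acta2, smooth muscle alpha-actin and the standard marker of the activated cell, read 6.78 and 7.24 log2 units in quiescent cells and 11.95 and 11.92 at 2 weeks. For both genes the 2-week arrays lay far above the quiescent ones, with changes of 5.28 ± 0.25 (adjusted p = 3.15e-05) for Tnc and 4.92 ± 0.20 (adjusted p = 1.38e-05) for Acta2, or 30.4-fold. Lox, a lysyl oxidase that starts collagen crosslinking, went from 5.59 and 5.33 to 10.17 and 9.92, a change of 4.58 ± 0.16 (adjusted p = 1.37e-05). Rgs16, an inhibitor of G-protein signalling, went from 4.58 and 5.58 to 9.63 and 10.09 (change 4.78 ± 0.33), and Ptgs2, the inducible cyclooxygenase, from 6.04 and 5.16 to 9.49 and 9.71 (change 4.00 ± 0.34). The arrays of the groups lay apart for these genes, as for all called genes and by the rule that picked the largest rises. The other genes among the 15 largest rises were Col12a1 (4.26), Ch25h (4.15, an oxysterol-producing hydroxylase), Gpnmb (4.04), Ltbp2 (4.03), Ncam1 (3.63), Il6 (3.61), Timp1 (3.53), Nrep (3.50), Sytl2 (3.46) and Fhl2 (3.38). All 15 were called in each of the 8 fits that left out an array. A dimmer probe set of Ch25h changed by 0.39 and was not past the threshold (p adjusted over all named probe sets = 0.395, as for other probe set values below).

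RefSeq's table of promoter windows, on build GRCm38.p6, held at least 1 window of 300 bases (250 before a gene's start and 50 after it) for 16990 of the 22180 genes, matched by symbol. Windows were searched on both strands for the TEAD motif GGAATG (through TEAD, YAP and TAZ reach DNA), the AP-1 motif TGANTCA (bound by Fos and Jun proteins), the SMAD motif GTCTAGAC and the CArG box of serum response factor (a pair of C, 6 of A or T, a pair of G). A CArG box ends in the letters with which the TEAD motif begins, so the 2 can share them. The TEAD motif was in 13.5% of all 20611 windows, in 15.5% of the 504 windows of the genes that rose and in 14.4% of the 521 of those that fell. For AP-1 the shares were 7.26%, 9.13% and 6.72%, and for the CArG box 1.45%, 1.39% and 1.92%. The SMAD motif was in 0.218% of all windows and in 0 of those of genes that rose or fell. The 250 bases before the start are printed below for 4 of the largest rises whose windows hold one of these motifs, 5′ to 3′ on the gene's strand with the motif in capitals. A match describes the letters and shows no binding.
Acta2 (chr19:34255374-34255623, minus strand, TEAD motif 140 bases before the start): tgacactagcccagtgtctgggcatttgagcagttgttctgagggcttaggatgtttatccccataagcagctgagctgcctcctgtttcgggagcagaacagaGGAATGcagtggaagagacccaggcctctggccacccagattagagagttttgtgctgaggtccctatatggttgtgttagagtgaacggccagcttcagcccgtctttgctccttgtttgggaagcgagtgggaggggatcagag
Timp1 (chrX:20869916-20870165, plus strand, TEAD motif 241 bases before the start): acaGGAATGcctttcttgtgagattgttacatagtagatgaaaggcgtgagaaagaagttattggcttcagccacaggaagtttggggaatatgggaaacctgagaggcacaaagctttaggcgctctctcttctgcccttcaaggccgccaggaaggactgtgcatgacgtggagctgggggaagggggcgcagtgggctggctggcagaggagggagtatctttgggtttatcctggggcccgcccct
Il6 (chr5:30012864-30013113, plus strand, AP-1 motif 242 bases before the start): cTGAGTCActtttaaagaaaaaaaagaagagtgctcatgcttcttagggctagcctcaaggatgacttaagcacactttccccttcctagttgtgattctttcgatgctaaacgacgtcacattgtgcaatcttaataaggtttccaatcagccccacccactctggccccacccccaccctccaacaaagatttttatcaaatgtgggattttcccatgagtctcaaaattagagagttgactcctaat
Fhl2, one start (chr1:43163962-43164211, minus strand, CArG box 21 bases before the start): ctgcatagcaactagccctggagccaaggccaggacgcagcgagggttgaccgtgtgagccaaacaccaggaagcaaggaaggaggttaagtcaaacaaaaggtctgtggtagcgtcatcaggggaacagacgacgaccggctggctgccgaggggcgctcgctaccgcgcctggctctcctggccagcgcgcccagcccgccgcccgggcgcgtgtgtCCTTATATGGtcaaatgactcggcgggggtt
Fhl2, another start (chr1:43196762-43197011, minus strand, CArG box 86 bases before the start): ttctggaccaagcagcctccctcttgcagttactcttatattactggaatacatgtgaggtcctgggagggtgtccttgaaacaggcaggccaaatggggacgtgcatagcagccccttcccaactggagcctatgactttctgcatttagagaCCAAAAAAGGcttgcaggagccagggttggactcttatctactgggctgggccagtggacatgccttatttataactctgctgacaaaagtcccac
Acta2 and Timp1 thus hold the TEAD letters at different distances, Il6 holds the AP-1 letters near the far end of the window, and both listed starts of Fhl2, which encodes a LIM-domain coactivator of actin-linked transcription, have a CArG box.

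Of 26 measured markers of the activated stellate cell, 18 rose and 0 fell, with a median change of 1.70. Leaving out 1 array gave 13 to 19 rises. Beside the genes above, this list held Col1a1, the main chain of scar collagen, at 7.33 and 8.14 log2 units in quiescent cells and 10.64 and 11.19 at 2 weeks, a change of 3.18 ± 0.27 (adjusted p = 4.93e-04). The group means were 9.04-fold apart. Fbln2 (1.89 ± 0.27, fibulin 2) and Loxl1 (1.63 ± 0.24, a lysyl oxidase relative) also rose, and so did Aebp1 (2.60), Cthrc1 (2.45), S100a6 (1.85) and Postn (1.13), named here after their values were seen. Members not past the threshold included Tgfb1, the chief fibrogenic cytokine, which read 9.48 and 9.52 log2 units in quiescent cells and 9.22 and 8.91 at 2 weeks (-0.44 ± 0.18, adjusted p = 0.262), and vimentin, chosen after its values were seen, at 0.68 ± 0.16 (adjusted p = 0.0532). Tgfb1 was lower on both 2-week arrays. Fbln2 was not past the threshold without 2-week replicate 1 (adjusted p = 0.0723). Loxl1 missed the threshold without either 2-week array (adjusted p from 0.0578 to 0.0611).

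Collagen genes rose in 13 of 24 measured cases and fell in 0, with a median change of 1.25. The list's rises came to 7 without either 2-week array. Col12a1, a fibril-associated collagen, had the largest change among them, from 4.51 and 5.33 to 9.27 and 9.11 (4.26 ± 0.24, adjusted p = 7.88e-05). Col15a1, a basement membrane zone collagen, read 4.53 and 4.72 log2 units in quiescent cells and 7.58 and 7.44 at 2 weeks (2.88 ± 0.19, adjusted p = 1.54e-04). Both lay clear of the quiescent arrays. Col15a1 lay under the background guide of 4.75 on both quiescent arrays, so the change is set against a level not above background. The basement membrane chain Col4a2 rose by 1.62 ± 0.15, and its partner Col4a1 (1.30), Col4a5 (1.64) and the fibrillar chain Col5a2 (2.60), chosen after their values were seen, were also called with any array left out. The fibrillar chain Col3a1, which spread most of these between the quiescent arrays, moved from 8.11 and 9.80 to 11.07 and 11.52 (2.33 ± 0.44, adjusted p = 0.0206), and Col1a2 from 10.70 and 11.30 to 12.37 and 12.33 (1.35 ± 0.21, adjusted p = 0.00874). A dimmer Col1a2 probe set rose by 2.55, and for Col6a1 the dimmer probe set rose by 1.18 (adjusted p = 0.0273) while the brighter one, at 0.63, was not past the threshold (adjusted p = 0.0815). Col1a2 was not past the threshold without either 2-week array (adjusted p from 0.0517 to 0.0787). Col3a1 missed the threshold without either 2-week array or in the fit of 4 arrays alone (adjusted p from 0.0956 to 0.12).

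Enzymes that modify and crosslink collagen rose in 6 of 20 cases and fell in 0, with a median change of 0.33. There were 3 rises without either 2-week array. Beside Lox, these included Plod2, the lysyl hydroxylase that fixes the type of crosslink, which went from 7.85 and 8.05 to 9.28 and 9.27 (1.32 ± 0.14, adjusted p = 0.0017), and P3h1, a prolyl 3-hydroxylase, from 8.01 and 8.18 to 9.28 and 9.42 (1.26 ± 0.14, adjusted p = 0.00186). The arrays did not overlap for either. Of 25 genes for endoplasmic reticulum chaperones and secretion, 3 rose and 0 fell (median 0.12): Sec24d (1.24 ± 0.15) and Sec23a (0.73 ± 0.17), coat proteins of the vesicles that leave the endoplasmic reticulum, and Creb3l1 (1.80 ± 0.22), a membrane-bound transcription factor linked to collagen secretion. Further secretory pathway genes outside the lists were called in each fit that left out an array and were chosen after their values were seen. They were Fkbp11 (2.53), a prolyl isomerase of the endoplasmic reticulum, Kdelr3 (2.38), a retrieval receptor, and Ssr2 (1.06), a subunit of the translocon-associated complex. Sec23a was not past the threshold without quiescent replicate 1 or either 2-week, 4-week or culture array, in the fit of 4 arrays alone, in the fit of 6 unseeded arrays or with the replicate block (adjusted p from 0.0584 to 0.26).

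Among 41 glycoproteins and proteoglycans of the matrix, 15 rose and 1 fell, with a median change of 0.52. Leaving out 1 array gave 12 to 15 rises. Ltbp2, a microfibril protein related to the binders of latent TGF-beta, read 5.05 and 5.22 log2 units in quiescent cells and 8.94 and 9.37 at 2 weeks (4.03 ± 0.17, adjusted p = 1.68e-05). Vcan, the large proteoglycan versican, rose by 2.94 ± 0.20, and Thbs1, thrombospondin 1, an activator of latent TGF-beta, went from 9.25 and 9.10 to 11.74 and 11.56 (2.48 ± 0.16). In each case both 2-week arrays were the higher. Mfap4 (2.24 ± 0.19, microfibril-associated) and Dpt (1.28 ± 0.18, dermatopontin) rose as well, as did Fmod (2.72), Mfap2 (2.21) and Thbs2 (1.78), chosen after their values were seen. Efemp1, a fibulin, was the member that fell (-1.42 ± 0.26, adjusted p = 0.018). Decorin and lumican, abundant proteoglycans of stellate cells named after their values were seen, changed by -0.19 ± 0.13 and 0.17 ± 0.20 and were not past the threshold (adjusted p = 0.544 and 0.779). Of 17 portal fibroblast and mesothelial markers, 6 rose and 0 fell, with a median change of 0.13. The log2 of their summed level went from 11.11 and 11.44 to 12.49 and 12.69. Their array medians were 5.20 and 5.43 in quiescent cells and 5.17 and 5.34 at 2 weeks. Mfap4, Dpt, Fbln2 and Eln, the last named after its values were seen, rose in both lists, so the counts are not separate. Eln was not past the threshold in 2 of the 15 other fits. Another gene of the marker list, Wt1, a mesothelial transcription factor, went from 6.98 and 7.66 to 8.92 and 9.28 (1.78 ± 0.24, adjusted p = 0.00517). The part of such cells in the result was not tested. Efemp1 was not past the threshold without quiescent replicate 2 or either 2-week array (adjusted p from 0.0509 to 0.128).

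Matrix proteases and their inhibitors rose in 14 of 29 cases and fell in 0, with a median change of 0.93. Leaving out 1 array gave 10 to 16 rises. Timp1, the secreted inhibitor of metalloproteinases, read 8.56 and 7.71 log2 units in quiescent cells and 11.89 and 11.44 at 2 weeks (3.53 ± 0.26, adjusted p = 2.59e-04). Plat, tissue plasminogen activator, went from 6.88 and 7.60 to 10.56 and 10.43 (3.25 ± 0.22, adjusted p = 1.54e-04), and Mmp19 from 6.56 and 6.17 to 9.19 and 9.04 (2.75 ± 0.17, adjusted p = 1.28e-04). Inhibitor and proteases thus rose in the same samples, with no overlap of arrays. Adamts12, a secreted metalloprotease, changed by 2.50 ± 0.16, and Mmp12, the macrophage elastase, by 3.34 ± 0.13. Plau (2.36), Ctsk (2.44, a collagen-degrading cathepsin), Mmp2 (2.00, gelatinase A), Adam12 (1.80) and Mmp14 (1.16, the membrane activator of Mmp2) rose too and were chosen after their values were seen.

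Genes of the actin cytoskeleton and contractility rose in 12 of 27 cases and fell in 0, with a median change of 1.20. The list's rises came to 21 without quiescent replicate 2, 4 without 2-week replicate 1 and 7 without 2-week replicate 2. Tpm1, a tropomyosin, went from 7.32 and 7.82 to 9.91 and 9.80 (2.29 ± 0.18, adjusted p = 3.09e-04). Cnn1, calponin 1, a smooth muscle actin-binding protein, read 4.35 and 4.71 log2 units in quiescent cells and 6.61 and 6.40 at 2 weeks (1.98 ± 0.21, adjusted p = 0.00143). Itga11, a collagen-binding integrin chain of myofibroblasts, rose by 1.51 ± 0.19. The arrays of both groups lay apart for these genes. Tagln, the actin-binding transgelin, was named after its values were seen and spread from 7.32 to 9.44 between the quiescent arrays, against 11.61 and 11.30 at 2 weeks (3.08 ± 0.54, adjusted p = 0.0153). Lmod1, leiomodin, rose by 1.34 ± 0.21. Cnn1 lay under the background guide of 4.75 on both quiescent arrays, so the change is set against a level not above background. Of 15 vascular smooth muscle markers, 6 rose and 2 fell, and all 6 rises stand in the contractility list. There were 2 rises without either 2-week array. The falls were Rgs4 (-2.16 ± 0.25, adjusted p = 0.00263), an inhibitor of G-protein signalling, and Pln (-0.66 ± 0.16, adjusted p = 0.0496), phospholamban. The part of smooth muscle cells in these rises was not tested. Lmod1 was not past the threshold without either 2-week array (adjusted p from 0.06 to 0.0742). Tagln missed the threshold without either 2-week array or in the fit of 4 arrays alone (adjusted p from 0.073 to 0.131). Pln lost its call without any 1 array, in the fit of 4 arrays alone, in the fit of 6 unseeded arrays, with trend and robust options or with arrays centred (adjusted p from 0.0504 to 0.242).

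Markers of the quiescent stellate cell fell in 13 of 27 cases and rose in 1, with a median change of -0.75. The number of falls was 3 without 2-week replicate 1 and 8 without 2-week replicate 2. Hhip, a membrane protein that binds and blocks hedgehog ligands, read 7.88 and 7.28 log2 units in quiescent cells and 4.41 and 4.35 at 2 weeks, a change of -3.20 ± 0.20 (adjusted p = 1.27e-04). Vipr1, a receptor for vasoactive intestinal peptide, went from 10.19 and 10.28 to 7.88 and 8.33 (-2.13 ± 0.19, adjusted p = 5.98e-04), and Colec10, a secreted collectin, from 10.38 and 10.52 to 9.03 and 9.27 (-1.30 ± 0.15, adjusted p = 0.00234). Quiescent arrays were the higher for all of them, and Hhip lay under the background guide of 4.75 on both 2-week arrays. Rspo3, a Wnt-enhancing ligand, fell by 1.06 (adjusted p = 0.00635). Other falls were Colec11 (-1.51), Ntm (-0.95), Ecm1 (-0.88), Rgs5 (-0.66) and Ngfr (-0.75, the p75 neurotrophin receptor). A second Rgs5 probe set fell further, at -1.58. The list member that rose was Pdgfrb, the receptor for the stellate mitogen PDGF, which stands in the general stellate list as well. It went from 9.63 and 10.24 to 10.80 and 10.89 (0.91 ± 0.20, adjusted p = 0.0409). Colec11 and Rspo3 were not past the threshold without 2-week replicate 1 (adjusted p from 0.0611 to 0.108). Ecm1 and Ntm missed the threshold without 2-week replicate 1 or in the fit of 4 arrays alone (adjusted p from 0.051 to 0.0849). Ngfr lost its call without either quiescent, 2-week or 4-week array, in the fit of 4 arrays alone or with trend and robust options (adjusted p from 0.0531 to 0.229). Rgs5 fell short of the threshold without quiescent replicate 1 or either 2-week, 4-week or culture array, in the fit of 4 arrays alone or in the fit of 6 unseeded arrays (adjusted p from 0.0544 to 0.13). Pdgfrb was not past the threshold without quiescent replicate 1 or either 2-week, 4-week or culture array, in the fit of 4 arrays alone, in the fit of 6 unseeded arrays or with the replicate block (adjusted p from 0.055 to 0.182).

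Several classical stellate cell markers were not past the threshold. Lrat, the enzyme that esterifies retinol for storage, read 10.95 and 11.29 log2 units in quiescent cells and 10.95 and 11.11 at 2 weeks. Reln, the secreted glycoprotein reelin, read 11.57 and 11.85 log2 units in quiescent cells and 10.72 and 11.17 at 2 weeks, and Des, the intermediate filament desmin, 9.67 and 9.83 log2 units in quiescent cells and 9.75 and 9.68 at 2 weeks. The groups overlapped for Lrat and Des, with changes of -0.09 ± 0.38 (adjusted p = 0.952) and -0.04 ± 0.13 (adjusted p = 0.945), whereas both 2-week arrays were lower for Reln (-0.77 ± 0.26, adjusted p = 0.169). Over 26 genes of retinoid metabolism, 1 rose and 2 fell, with a median of -0.11: Dhrs3, a retinal reductase, rose by 1.09 ± 0.23, while Aldh1a1, a retinal dehydrogenase, and Rxra, a retinoid X receptor, changed by -0.95 ± 0.15 and -0.95 ± 0.16. Of 30 genes of lipid droplets and lipid metabolism, 2 rose and 2 fell (median -0.11). Angptl4, an inhibitor of lipoprotein lipase, and Hilpda, a droplet protein that restrains lipolysis, rose by 2.06 ± 0.45 and 1.02 ± 0.23. The triglyceride lipase Pnpla2 (-1.26 ± 0.22) and the monoglyceride lipase Mgll (-1.34 ± 0.20) fell. Aldh1a1 and Rxra were not past the threshold without 2-week replicate 1 or in the fit of 4 arrays alone (adjusted p from 0.0595 to 0.11). Mgll missed the threshold without either 2-week array (adjusted p from 0.0547 to 0.0578). Pnpla2 lost its call without either 2-week array or in the fit of 4 arrays alone (adjusted p from 0.0671 to 0.118). Dhrs3 fell short of the threshold without quiescent replicate 2 or either 2-week or 4-week array or in the fit of 4 arrays alone (adjusted p from 0.0655 to 0.152). Hilpda was not past the threshold without either quiescent, 2-week or 4-week array, in the fit of 4 arrays alone or with the replicate block (adjusted p from 0.0601 to 0.179). Angptl4 missed the threshold without either 2-week, 4-week or culture array, in the fit of 4 arrays alone, in the fit of 6 unseeded arrays or with trend and robust options (adjusted p from 0.0576 to 0.232).

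**Figure D3:**
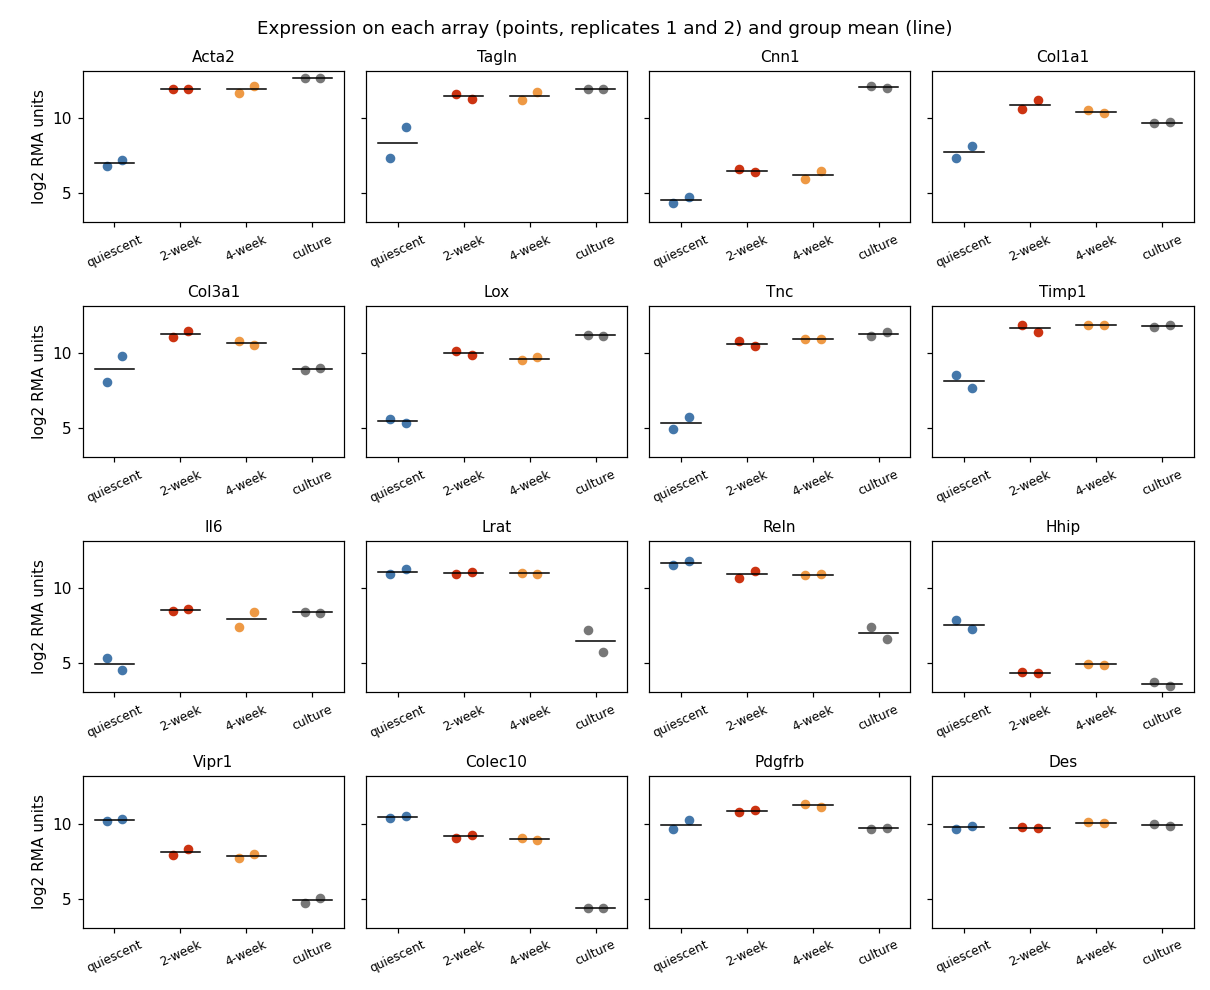
Expression of 16 genes on each array (log2 RMA units, points are replicates 1 and 2 and lines are group means) in quiescent, 2-week, 4-week and cultured cells. Acta2, Lox, Tnc and Timp1 were higher on both 2-week arrays than on both quiescent ones, Hhip, Vipr1 and Colec10 were lower, and Lrat and Des overlapped.

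TGF-beta and bone morphogenetic protein (BMP) signalling changed in both directions, with 3 rises and 8 falls among 35 genes and a median of -0.08. Of the ligands, Tgfb3 went from 5.76 and 6.68 to 9.04 and 8.98 (2.79 ± 0.26, adjusted p = 7.28e-04) and Tgfb2 from 4.58 and 5.48 to 6.90 and 7.06 (1.95 ± 0.26, adjusted p = 0.00484), while Tgfb1 was not past the threshold. Both rising ligands had separate arrays. Id2, a target of BMP signals, rose by 1.02 ± 0.18. The BMP ligands Bmp4 and Bmp10 changed by -1.89 ± 0.26 and -1.25 ± 0.19, and 6 further members fell, among them Bmp2 (-1.24) and Eng (-0.68). Called falls numbered 1 without 2-week replicate 1, 2 without 2-week replicate 2 and 5 without either 4-week array. Bmp2 and Eng, named for being also in the sinusoidal endothelial list, moved with its summed level, and the part of endothelial cells in their falls was not tested. Bmp4 was not past the threshold without 2-week replicate 1 (adjusted p = 0.0611). Bmp10 missed the threshold without 2-week replicate 2 (adjusted p = 0.0578). Id2 lost its call without 2-week replicate 2 or in the fit of 4 arrays alone (adjusted p from 0.0679 to 0.0766). Bmp2 fell short of the threshold without quiescent replicate 1 or either 2-week or 4-week array or in the fit of 4 arrays alone (adjusted p from 0.0543 to 0.2). Eng was not past the threshold without quiescent replicate 2 or either 2-week, 4-week or culture array, in the fit of 4 arrays alone or in the fit of 6 unseeded arrays (adjusted p from 0.0581 to 0.188).

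Among 47 growth factors and receptors, 9 rose and 3 fell (median 0.13). The list's rises came to 5 without quiescent replicate 1 or either culture array, 2 without 2-week replicate 1 and 3 without 2-week replicate 2. There was 1 fall without quiescent replicate 1, 5 without quiescent replicate 2 and 0 without 2-week replicate 1. Vegfd, a lymphangiogenic ligand, read 6.58 and 7.20 log2 units in quiescent cells and 10.13 and 10.30 at 2 weeks (3.33 ± 0.43, adjusted p = 0.0043), and Igf1, insulin-like growth factor 1, 7.45 and 7.19 log2 units in quiescent cells and 8.96 and 8.91 at 2 weeks (1.61 ± 0.17, adjusted p = 0.00145). Both 2-week arrays were higher for each gene. Ereg, an EGF receptor ligand, rose by 2.70 ± 0.34. The falls were Rspo3 (-1.06), Kitl (-0.88, stem cell factor) and Kdr (-1.94, VEGF receptor 2 and an endothelial marker). Hgf, the hepatocyte growth factor that quiescent stellate cells secrete, was named after its values were seen and changed by -0.50 ± 0.13 (adjusted p = 0.0737), not past the threshold. Ereg and Rspo3 were not past the threshold without 2-week replicate 1 (adjusted p from 0.0515 to 0.0611). Kdr missed the threshold without quiescent replicate 1 or 2-week replicate 1 or in the fit of 4 arrays alone (adjusted p from 0.0653 to 0.143). Kitl lost its call without quiescent replicate 1 or either 2-week or 4-week array or in the fit of 4 arrays alone (adjusted p from 0.0701 to 0.187).

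Of 25 hedgehog and Notch genes, 2 rose and 7 fell, with a median of -0.04. The number of rises was 1 without quiescent replicate 1 or either 2-week array. Called falls numbered 4 without quiescent replicate 2 or either 4-week or culture array, 1 without 2-week replicate 1 and 3 without 2-week replicate 2. Boc, a hedgehog co-receptor, went from 5.39 and 5.53 to 6.49 and 6.73 (1.15 ± 0.14, adjusted p = 0.00359), and Gli2, the pathway's transcription factor, rose by 0.79 ± 0.15. The hedgehog inhibitor Hhip moved the other way, as given above. Ptch1 of the same list, named after its values were seen, fell too, though not past the threshold in 6 of the 15 other fits. Whether hedgehog signalling itself rose or fell was not tested. Falls of the Notch ligand Dll4 (-1.79 ± 0.29) and of Notch1 (-0.94 ± 0.13) came beside the lower endothelial marker level, whose part was not tested. Dll4 lay under the background guide of 4.75 on both 2-week arrays, so the change is set against a level not above background. Notch1 was not past the threshold without 2-week replicate 1 (adjusted p = 0.0611). Dll4 missed the threshold without either 2-week array or in the fit of 4 arrays alone (adjusted p from 0.0679 to 0.0823). Gli2 lost its call without quiescent replicate 1 or either 2-week array or in the fit of 4 arrays alone (adjusted p from 0.0631 to 0.109).

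Axon guidance and neural adhesion genes, many of which stellate cells express, rose in 9 of 34 cases and fell in 6 (median -0.16). The list's rises came to 2 without 2-week replicate 1 and 4 without 2-week replicate 2. There were 10 falls without quiescent replicate 2, 0 without 2-week replicate 1 and 3 without 2-week replicate 2. Ncam1, the neural cell adhesion molecule, read 4.81 and 6.04 log2 units in quiescent cells and 8.88 and 9.23 at 2 weeks (3.63 ± 0.35, adjusted p = 8.75e-04). Slit3, a secreted guidance ligand, went from 6.24 and 5.86 to 8.57 and 8.29 (2.38 ± 0.20, adjusted p = 4.85e-04). Ntrk3 (1.67 ± 0.23), a neurotrophin receptor, and Robo2 (1.22 ± 0.17), a Slit receptor, rose, while the endothelial Robo4 (-1.70 ± 0.31) and the guidance genes Sema6a (-1.62 ± 0.30), Plxnc1 (-1.57 ± 0.25) and Ntn1 (-1.15 ± 0.16) fell. Ntn1, Ntrk3 and Robo2 were not past the threshold without 2-week replicate 1 (adjusted p from 0.0598 to 0.063). Plxnc1 missed the threshold without 2-week replicate 1 or in the fit of 4 arrays alone (adjusted p from 0.0679 to 0.103). Robo4 and Sema6a lost their calls without either 2-week array or in the fit of 4 arrays alone (adjusted p from 0.0536 to 0.156).

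Vasoactive genes were split, with 5 rises and 5 falls among 28. The number of rises was 3 without 2-week replicate 1. Called falls numbered 3 without quiescent replicate 1, 2-week replicate 2 or either 4-week array and 1 without 2-week replicate 1. Edn1, the vasoconstrictor endothelin 1, went from 4.56 and 4.46 to 6.84 and 6.69 (2.25 ± 0.19, adjusted p = 4.93e-04), and Rgs16 and Ptgs2 were among the largest rises of all. Edn1 lay under the background guide of 4.75 on both quiescent arrays, so the change is set against a level not above background. Rgs4 went the other way, from 9.70 and 9.56 to 7.44 and 7.49. Agtr1a, the angiotensin receptor, fell by 1.07 (adjusted p = 0.0278), and Ece1, which activates endothelin, and Calcrl, an endothelial peptide receptor, changed by -1.14 ± 0.16 and -1.22 ± 0.16. Regulators of G-protein signalling therefore differed in direction, with Rgs16 up and Rgs4 and Rgs5 down. Calcrl was not past the threshold without 2-week replicate 1 (adjusted p = 0.0515). Ece1 missed the threshold without 2-week replicate 1 or in the fit of 4 arrays alone (adjusted p from 0.0506 to 0.0672). Agtr1a lost its call without quiescent replicate 1 or either 2-week or 4-week array or in the fit of 4 arrays alone (adjusted p from 0.051 to 0.168). Rgs5 fell short of the threshold without quiescent replicate 1 or either 2-week, 4-week or culture array, in the fit of 4 arrays alone or in the fit of 6 unseeded arrays (adjusted p from 0.0544 to 0.13).

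Chemokines and cytokines rose in 6 of 39 cases and fell in 1 (median 0.25). The list's rises came to 2 without 2-week replicate 1. There were 2 falls without quiescent replicate 1 and 3 without quiescent replicate 2. Il6, the cytokine that drives the hepatic acute-phase response, read 5.33 and 4.55 log2 units in quiescent cells and 8.47 and 8.63 at 2 weeks (3.61 ± 0.33, adjusted p = 7.28e-04). Ccl7, a monocyte chemokine, went from 9.03 and 9.74 to 11.35 and 11.49 (2.03 ± 0.22, adjusted p = 0.00192), and Cxcl14 from 7.86 and 6.51 to 10.83 and 9.72 (3.09 ± 0.44, adjusted p = 0.00642). Il34, a ligand of the macrophage receptor CSF1R, was the one that fell, from 9.64 and 9.24 to 7.80 and 7.72 (-1.68 ± 0.17, adjusted p = 0.00119). Ccl2, named after its values were seen, changed by 0.27 ± 0.17 (adjusted p = 0.51) and was not past the threshold. Interferon response genes showed 1 rise and 1 fall of 29, Zbp1 (0.82 ± 0.15) and Psmb9 (-0.65 ± 0.15), and antigen presentation 1 of each among 16, Ctss (0.81 ± 0.14) and H2-T23 (-0.86 ± 0.15). Cxcl14 was not past the threshold without 2-week replicate 1 (adjusted p = 0.0611). H2-T23 missed the threshold without quiescent replicate 1 or 2-week replicate 1 or in the fit of 4 arrays alone (adjusted p from 0.0529 to 0.105). Ctss lost its call without quiescent replicate 1 or either 2-week array or in the fit of 4 arrays alone (adjusted p from 0.0607 to 0.077). Zbp1 fell short of the threshold without quiescent replicate 2 or either 2-week array or in the fit of 4 arrays alone (adjusted p from 0.0564 to 0.137). Psmb9 was not past the threshold without any 1 array, in the fit of 4 arrays alone, in the fit of 6 unseeded arrays or with the replicate block (adjusted p from 0.0602 to 0.224).

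Macrophage genes did not move as a group, since 3 of 20 markers rose and 2 fell, with a median of -0.05. The number of rises was 6 without quiescent replicate 2 and 1 without 2-week replicate 2. Called falls numbered 4 without quiescent replicate 1 and 0 without 2-week replicate 1. Gpnmb, a glycoprotein of lysosome-rich macrophages that other cells also make, read 5.63 and 5.68 log2 units in quiescent cells and 9.50 and 9.89 at 2 weeks (4.04 ± 0.24, adjusted p = 9.55e-05). Cd68, a macrophage lysosomal protein, rose by 1.02 ± 0.16, while Cd163 (-1.15 ± 0.17), a scavenger receptor, and Timd4 (-1.32 ± 0.20), a marker of resident Kupffer cells, fell. Adgre1, an adhesion receptor that defines mouse macrophages, read 6.91 and 6.49 log2 units in quiescent cells and 6.30 and 7.07 at 2 weeks and overlapped (-0.01 ± 0.26, adjusted p = 0.988). Atp6v0d2, a proton pump subunit of osteoclasts and macrophages that stands in no list, went from 3.21 and 3.17 to 6.05 and 6.66 (3.17 ± 0.32, adjusted p = 0.00113) and was chosen after its values were seen. Atp6v0d2 lay under the background guide of 4.75 on both quiescent arrays, so the change is set against a level not above background. The log2 of the summed macrophage level was 12.27 and 12.49 in quiescent cells and 12.61 and 12.91 at 2 weeks. The part of macrophages in the rises of Gpnmb, Mmp12 and Atp6v0d2 was not tested. Ccr2, a monocyte receptor, was the 1 of 16 markers of monocytes, neutrophils and dendritic cells past the threshold (1.32 ± 0.20). Timd4 was not past the threshold without 2-week replicate 1 (adjusted p = 0.0734). Ccr2 missed the threshold without 2-week replicate 2 (adjusted p = 0.0551). Cd163 lost its call without 2-week replicate 1 or in the fit of 4 arrays alone (adjusted p from 0.0512 to 0.0566). Cd68 fell short of the threshold without 2-week replicate 2 or in the fit of 4 arrays alone (adjusted p from 0.0637 to 0.0648).

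Proliferation genes were called in few cases, but the 6.25% of cell cycle genes that rose is no smaller than the 2.34% of all genes. Of 32 cell cycle genes, 2 rose and 0 fell, with a median of -0.03: Mcm6, a subunit of the replicative helicase, went from 4.90 and 5.10 to 6.30 and 6.26 (1.28 ± 0.14, adjusted p = 0.00205), and Rrm1, a subunit of ribonucleotide reductase, rose by 0.93 ± 0.15. The list's rises came to 4 without quiescent replicate 2 and 1 without 2-week replicate 1. Mki67, the proliferation marker Ki-67, read 5.10 and 5.34 log2 units in quiescent cells and 5.17 and 5.51 at 2 weeks and overlapped (0.12 ± 0.18, adjusted p = 0.824). Ccnd1, cyclin D1, fell by 1.14 (adjusted p = 0.0317). Among 26 immediate early genes, 1 rose and 0 fell (median -0.02), the nuclear receptor Nr4a2 (1.88 ± 0.37). There were 3 rises without quiescent replicate 1, 2 without quiescent replicate 2 and 0 without either 2-week or 4-week array. Fos, named after its values were seen, read 10.49 and 10.68 log2 units in quiescent cells and 10.37 and 10.49 at 2 weeks (-0.15 ± 0.14, adjusted p = 0.682). Rrm1 was not past the threshold without 2-week replicate 1 (adjusted p = 0.0808). Nr4a2 missed the threshold without either 2-week or 4-week array or in the fit of 4 arrays alone (adjusted p from 0.0558 to 0.151). Ccnd1 lost its call without either 2-week, 4-week or culture array, in the fit of 4 arrays alone or in the fit of 6 unseeded arrays (adjusted p from 0.0576 to 0.176).

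YAP and TAZ are the transcriptional coactivators held back by the Hippo kinases, which bind DNA through TEAD factors, and they are the subject of the series. Yap1 read 8.20 and 7.97 log2 units in quiescent cells and 7.99 and 8.13 at 2 weeks, and Wwtr1, which encodes TAZ, 9.30 and 8.94 log2 units in quiescent cells and 8.92 and 8.96 at 2 weeks. Neither was past the threshold, with changes of -0.02 ± 0.17 (adjusted p = 0.975) and -0.18 ± 0.18 (adjusted p = 0.7), and the arrays overlapped for both. Of 23 target genes, 4 rose and 1 fell, with a median of -0.08. The number of rises was 1 without either 2-week array. The rises were Tgfb2, Axl (0.83 ± 0.14, a receptor tyrosine kinase), Fstl1 (1.45 ± 0.27, follistatin-like 1) and Gadd45b (1.23 ± 0.26, a stress-response gene), and the fall was Nt5e (-2.20 ± 0.20, adjusted p = 7.16e-04), the ectonucleotidase CD73. Of the most used reporters, Ccn2 read 10.48 and 10.76 log2 units in quiescent cells and 10.77 and 10.31 at 2 weeks and overlapped (-0.08 ± 0.19, adjusted p = 0.906). Ccn1 was higher on both 2-week arrays, from 10.74 and 11.50 to 11.68 and 11.77 (0.60 ± 0.23, adjusted p = 0.213), and so was Ankrd1, from 5.20 and 6.25 to 7.22 and 6.66 (1.22 ± 0.53, adjusted p = 0.287). Both were short of the threshold. Fstl1 was not past the threshold without either 2-week array or in the fit of 4 arrays alone (adjusted p from 0.0866 to 0.135). Axl missed the threshold without quiescent replicate 1 or either 2-week array or in the fit of 4 arrays alone (adjusted p from 0.0516 to 0.0755). Gadd45b lost its call without quiescent replicate 2 or either 2-week, 4-week or culture array, in the fit of 4 arrays alone, in the fit of 6 unseeded arrays or with the replicate block (adjusted p from 0.05 to 0.154).

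Genes of hepatocytes and of sinusoidal endothelial cells were lower at 2 weeks. Of 22 hepatocyte markers, 9 fell and 0 rose, with a median of -1.04 and with all 22 changes negative. Called falls numbered 14 without quiescent replicate 2, 0 without 2-week replicate 1 and 5 without 2-week replicate 2 or either 4-week array. The log2 of their summed level was 15.24 and 14.38 on the quiescent arrays and 13.16 and 13.77 on the 2-week arrays. Among the 15 largest falls, most encode proteins that hepatocytes secrete. Hpx, the heme carrier hemopexin, read 11.89 and 10.34 log2 units in quiescent cells and 7.43 and 8.37 at 2 weeks (-3.22 ± 0.45, adjusted p = 0.00602), and Fga, a fibrinogen chain, 10.77 and 9.02 log2 units in quiescent cells and 6.36 and 7.23 at 2 weeks (-3.10 ± 0.52, adjusted p = 0.0123). Saa2 read 11.99 and 10.78 log2 units in quiescent cells and 4.90 and 8.27 at 2 weeks. Its change of -4.80 ± 0.87 (adjusted p = 0.0173) was -3.12 without 2-week replicate 1 and -6.48 without replicate 2. Orm2 changed by -4.24 ± 0.84 and Orm1 by -3.31 ± 0.45, like Saa2 acute-phase proteins of gene families whose near-identical copies leave these values uncertain. The same uncertainty holds for Mup20 (-4.23 ± 0.51), a major urinary protein. Saa4, another serum amyloid A gene, changed by -3.77 ± 0.76. Further falls were Apcs (-3.33), Serpina10 (-3.31), Itih4 (-3.29), Fgl1 (-3.25), Crp (-3.19) and Obp2a (-4.78). Obp2a and Saa4 lay under the background guide of 4.75 on both 2-week arrays, so the changes are set against levels not above background. Alb, albumin, read 11.90 and 11.63 log2 units in quiescent cells and 10.68 and 11.12 at 2 weeks (-0.86 ± 0.20, adjusted p = 0.0486). The part of hepatocytes or their free RNA in these falls was not tested. Hpx and Orm1 were not past the threshold without 2-week replicate 1 (adjusted p from 0.0563 to 0.0669). Fga and Fgl1 missed the threshold without 2-week replicate 1 or in the fit of 4 arrays alone (adjusted p from 0.0622 to 0.146). Saa2 lost its call without quiescent replicate 1, in the fit of 4 arrays alone or with trend and robust options (adjusted p from 0.0503 to 0.0869). Apcs, Itih4 and Serpina10 fell short of the threshold without either 2-week array or in the fit of 4 arrays alone (adjusted p from 0.0613 to 0.139). Orm2 was not past the threshold without either 2-week or 4-week array, in the fit of 4 arrays alone or with trend and robust options (adjusted p from 0.0566 to 0.206). Crp and Saa4 missed the threshold without either 2-week, 4-week or culture array, in the fit of 4 arrays alone, in the fit of 6 unseeded arrays or with trend and robust options (adjusted p from 0.0508 to 0.21). Alb lost its call without quiescent replicate 1 or either 2-week, 4-week or culture array, in the fit of 4 arrays alone, in the fit of 6 unseeded arrays or with the replicate block (adjusted p from 0.0593 to 0.284).

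Sinusoidal endothelial markers fell in 15 of 22 cases and rose in 0, with a median of -1.60 and all 22 changes negative. The list's falls came to 9 without quiescent replicate 1, 2 without 2-week replicate 1 and 5 without 2-week replicate 2. Their summed level, as log2, was 14.55 and 13.93 in quiescent cells and 12.64 and 12.89 at 2 weeks. Dnase1l3, a secreted nuclease, read 9.28 and 8.72 log2 units in quiescent cells and 6.93 and 7.04 at 2 weeks (-2.02 ± 0.19, adjusted p = 8.75e-04), and Ehd3, an endocytic trafficking protein, 11.32 and 11.24 log2 units in quiescent cells and 9.25 and 9.59 at 2 weeks (-1.86 ± 0.17, adjusted p = 5.98e-04). The scavenger receptor Stab2 read 9.66 and 8.98 log2 units in quiescent cells and 7.11 and 7.85 at 2 weeks (-1.84 ± 0.30, adjusted p = 0.0116), and the lectin Clec4g changed by -2.11 ± 0.30. Both quiescent arrays were the higher for these genes. Sox18 (-2.35), an endothelial transcription factor, and Clec14a (-1.75), an endothelial surface lectin, stand in no list, also fell and were chosen after their values were seen. Clec4g was not past the threshold without 2-week replicate 1 (adjusted p = 0.0734). Stab2 missed the threshold without 2-week replicate 1 or in the fit of 4 arrays alone (adjusted p from 0.0535 to 0.0984).

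Tmem108 and Hhip, both among the 15 largest falls, stand outside the plasma protein group. Tmem108, a transmembrane protein, read 9.50 and 8.71 log2 units in quiescent cells and 5.77 and 5.05 at 2 weeks (-3.70 ± 0.49, adjusted p = 0.00473), and its second probe set fell by 2.98 (a change of -2.98, adjusted p = 1.11e-04). Of 14 genes of cytochrome P450 enzymes and CCl4 bioactivation, 3 fell and 0 rose, with a median of -0.30. There was 1 fall without 2-week replicate 1. Cyp2f2 went from 8.40 and 7.75 to 5.41 and 5.96 (-2.40 ± 0.26, adjusted p = 0.00169), though its dimmer probe set, at -0.65, was not past the threshold (adjusted p = 0.242). Cyp4b1 (-1.83 ± 0.26) and the epoxide hydrolase Ephx1 (-1.27 ± 0.29) fell too. Cyp2e1, the enzyme best known for activating CCl4 and named after its values were seen, differed more within groups than between them, at 8.96 and 7.07 log2 units in quiescent cells and 6.39 and 7.79 at 2 weeks (-0.93 ± 0.58, adjusted p = 0.503). Among 27 genes of the oxidative stress response, 0 rose and 2 fell (median -0.22), the extracellular dismutase Sod3 (-1.12 ± 0.22) and the glutathione transferase Gstm1 (-0.75 ± 0.15). Of 21 complement genes, 1 rose and 3 fell (median -0.68). The number of falls was 1 without quiescent replicate 1, 2-week replicate 2 or either 4-week or culture array, 9 without quiescent replicate 2 and 0 without 2-week replicate 1. C3ar1, a receptor of macrophages, rose by 1.56 ± 0.22, and Cfb (-1.24 ± 0.23), C9 (-2.42 ± 0.50) and C5ar1 (-1.23 ± 0.26) fell. Cyp4b1 was not past the threshold without 2-week replicate 1 (adjusted p = 0.0733). C3ar1 missed the threshold without either 2-week array (adjusted p from 0.0507 to 0.0514). Cfb lost its call without quiescent replicate 1 or either 2-week array or in the fit of 4 arrays alone (adjusted p from 0.057 to 0.144). Sod3 fell short of the threshold without quiescent replicate 2 or either 2-week or 4-week array (adjusted p from 0.0503 to 0.169). C5ar1 was not past the threshold without quiescent replicate 1, 2-week replicate 1 or either 4-week or culture array, in the fit of 4 arrays alone, in the fit of 6 unseeded arrays or with the replicate block (adjusted p from 0.0561 to 0.214). C9 missed the threshold without either 2-week, 4-week or culture array, in the fit of 4 arrays alone, in the fit of 6 unseeded arrays or with trend and robust options (adjusted p from 0.0507 to 0.227). Gstm1 lost its call without quiescent replicate 1 or either 2-week, 4-week or culture array, in the fit of 4 arrays alone or in the fit of 6 unseeded arrays (adjusted p from 0.0518 to 0.186). Ephx1 fell short of the threshold without quiescent replicate 2 or either 2-week, 4-week or culture array, in the fit of 4 arrays alone, in the fit of 6 unseeded arrays or with the replicate block (adjusted p from 0.0608 to 0.266).

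The counts of each list stand beside 2.34% of all genes higher and 2.43% lower, as plotted by list. Among the 11410 genes with a mean above 5 log2 units, 605 were higher and 611 lower, which is a larger share. Lists with few calls, such as those of retinoid, lipid, interferon, antigen presentation and cell cycle genes, were not tested against either share. Few calls do not mean a low share in these small lists. In the order named, 3.85%, 6.67%, 3.45%, 6.25% and 6.25% rose. The shares that fell were 7.69%, 6.67%, 3.45%, 6.25% and 0%. For lists with 0 calls in a direction, limma at an unadjusted p under 0.05 gave 2 falls among activated stellate markers, 0 among collagens, 1 in collagen processing, 2 among proteases and inhibitors, 0 in contractility, 4 among immediate early genes, 0 in the cell cycle and 1 in secretion. It gave 1 rise each for the oxidative stress and P450 lists. For marker lists it gave 0 rises of hepatocyte and sinusoidal endothelial genes and 1 fall of portal fibroblast and mesothelial genes. Of 12 cholangiocyte markers, 0 were called in either direction and 2 fell at an unadjusted p under 0.05.

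**Figure D4:**
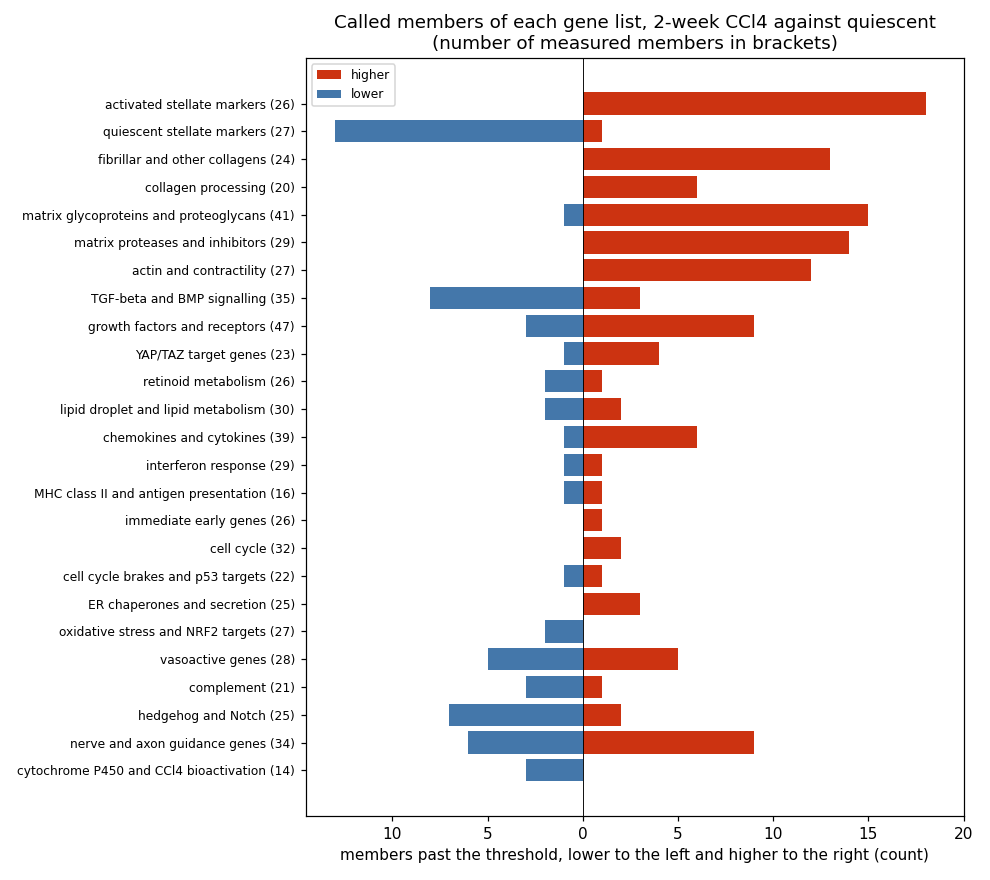
Number of members past the threshold in each of 25 gene lists, higher at 2 weeks to the right and lower to the left, with the number measured in brackets. The activated stellate list has the most rises, 18 of 26, and the quiescent stellate list the most falls, 13 of 27.

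Whether the state at 2 weeks differed from that at 4 weeks was tested directly. Between the 2 CCl4 times 19 genes were called, 0.0857% of all, 6 higher (0.0271%) and 13 lower (0.0586%) at 4 weeks, and 10 of them were also among the 1058 that differed from quiescent at 2 weeks. Acta2 stood at 11.70 and 12.18 at 4 weeks (4-week minus 2-week 0.01 ± 0.20), a difference not past the threshold (adjusted p = 0.998), and Col1a1 differed by -0.47 ± 0.27 (adjusted p = 0.743). The genes lower at 4 weeks included Mmp12, by 1.26 (a difference of -1.26, adjusted p = 0.0321), Atp6v0d2 (-2.57), Cd68 (-1.41), Ctss (-1.22) and Mcm6 (-1.16). Csf1r, C1qb, Vsig4 and Clec12a, genes of macrophages and other myeloid cells chosen after their values were seen, were also among the 13. Macrophage marker medians were 6.24 and 6.50 at 4 weeks, below both 2-week arrays, and the part of macrophages was not tested. Chst11, a chondroitin sulfotransferase, was higher at 4 weeks, by 1.35. The difference for Mmp12, Mcm6 and Chst11 was not past the threshold without either 2-week, 4-week or culture array, in the fit of 6 unseeded arrays or with the replicate block (adjusted p from 0.0555 to 0.381). The difference for Atp6v0d2 was not past the threshold without 4-week replicate 2 or either 2-week or culture array, in the fit of 6 unseeded arrays or with the replicate block (adjusted p from 0.0633 to 0.307). The difference for Cd68 and Ctss was not past the threshold without either 2-week, 4-week or culture array or in the fit of 6 unseeded arrays (adjusted p from 0.0708 to 0.35). The count of 19 was not stable: it was 85 without either quiescent array and 0 without either 2-week array, either cultured array or 4-week replicate 2, and 2 without 4-week replicate 1. At an unadjusted p under 0.05 the count was 1810.

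Cells after 10 days in culture differed from the 2-week cells in 4084 genes, 18.4% of those tested, 2367 higher in culture (10.7%) and 1717 lower (7.74%). Cultured Acta2 was 0.76 ± 0.20 above its 2-week level (adjusted p = 0.0304), and Cnn1 5.59 ± 0.21 above (adjusted p = 7.62e-07). Genes that had not passed the threshold at 2 weeks differed as well. Lrat was lower in culture by 4.55 (a difference of -4.55 ± 0.38, adjusted p = 7.88e-05) and Reln differed by -3.90 ± 0.26 (adjusted p = 2.34e-05). Ankrd1 was 3.83 ± 0.53 higher in culture (adjusted p = 0.00126), Ccn2 1.08 ± 0.19 higher (adjusted p = 0.00426) and Mki67 1.72 ± 0.18 higher (adjusted p = 2.77e-04). Among the collagen genes compared, Col1a1 was -1.21 ± 0.27 in culture against 2 weeks (adjusted p = 0.0141) and Col3a1 -2.35 ± 0.44 (adjusted p = 0.00612). Col15a1 was -3.42 ± 0.19 (adjusted p = 1.03e-05) and Col1a2 -1.08 ± 0.21 (adjusted p = 0.00691). Cultured Col15a1, at 4.36 and 3.82, lay under the background guide of 4.75. Without culture replicate 2 the Col1a2 difference was -0.92 and not past the threshold. Col12a1 differed by 0.40 (adjusted p = 0.324) and Col4a2 by -0.16 (adjusted p = 0.591). Sytl2, a vesicle-tethering protein among the largest rises at 2 weeks, differed by -4.44 ± 0.23 (adjusted p = 5.37e-06). Seeding, culture, the route of activation and any exposure to valproic acid after seeding cannot be told apart here. Changes from quiescent at 2 weeks, 4 weeks and in culture share the same quiescent arrays, so they are set side by side with no measure of likeness. The difference for Acta2 was not past the threshold without either 2-week or culture array (adjusted p from 0.11 to 0.127). The difference for Col1a1 was not past the threshold without 2-week replicate 2 or either culture array (adjusted p from 0.0704 to 0.109). The difference for Col3a1 was not past the threshold without 2-week replicate 2 (adjusted p = 0.0591). The count of 4084 was 2427 without culture replicate 2 and 2436 without 2-week replicate 2.

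**Figure D5:**
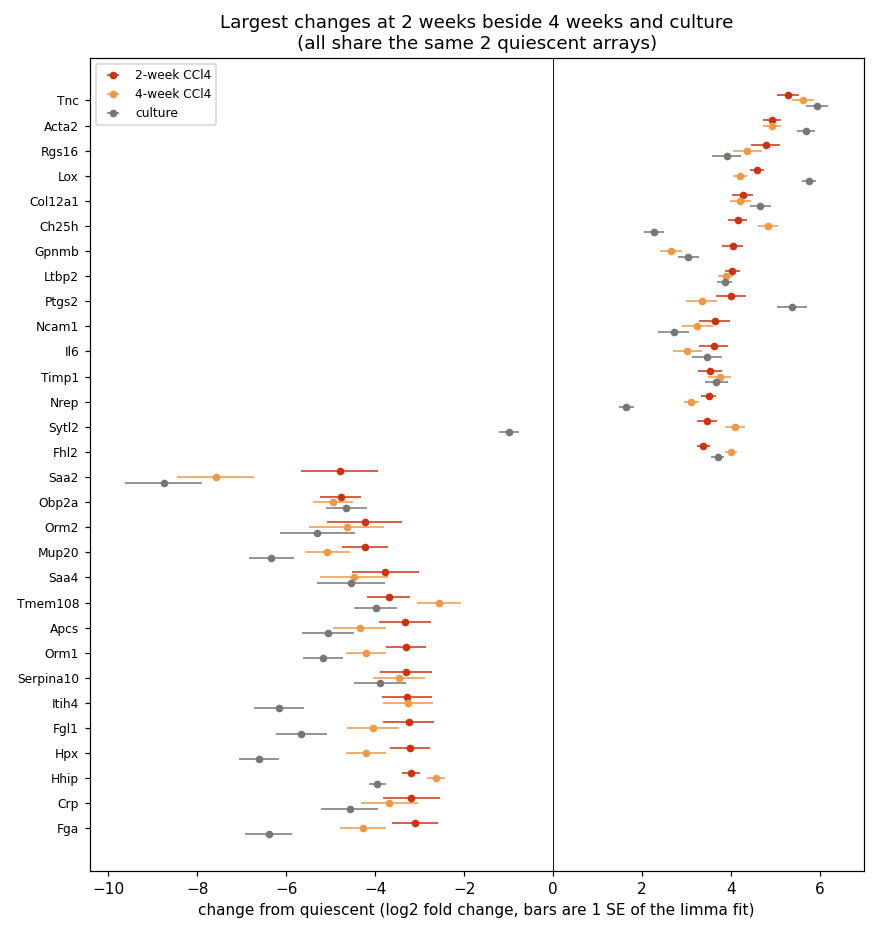
Change from quiescent (log2 fold change, bars are 1 SE of limma's fit) at 2 weeks, 4 weeks and in culture for the 15 largest rises and 15 largest falls at 2 weeks. Sytl2 was 3.46 at 2 weeks and -0.99 in culture, and the 3 values share the quiescent arrays.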

How the data were processed

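Total RNA of primary BALB/c stellate cells was preamplified, labelled with biotin and hybridised to Affymetrix arrays, per the labels' protocols. The values the authors deposited are on the log2 scale. The submitters' processing notes name RMA and Affymetrix Expression Console; versions and build are not given in the sources used here. Because RMA normalizes the arrays jointly, a shift common to most genes is hidden. Array medians over 41345 probe sets ran from 4.63 to 4.72, and the values were used as deposited. For arrays, their number limits the precision.

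The platform annotation gave 1 symbol to 23521 probe sets, several to 1814 (not used) and none to 16010. Symbols were checked by gene ID against RefSeq's GRCm38.p6 table, which lacked 193 of the IDs and altered 0 symbols. Of 22180 genes, 1082 had several probe sets, and the brightest was used.

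limma 3.58.1 in R 4.3.3 (lmFit and eBayes, two-sided) fitted all 8 arrays as 4 groups, with 4 residual and 4.75 prior degrees of freedom, and p-values were adjusted by Benjamini-Hochberg over all genes. Groups came from the sample titles. Replicate numbers were not used to pair samples in this fit. Deviations of same-numbered quiescent and 2-week arrays correlated at -0.014. Over all pairs of groups such correlations ran from -0.042 (culture with 2-week) to 0.074 (quiescent with 4-week). Low correlations cannot show whether same-numbered arrays were prepared together, which the sources used here do not state. The script was tested on simulated data. Alternatives were the arrays in the fit, a replicate block, trend and robust variance, averaged probe sets, a level above 5, centred arrays, a fold threshold and leaving out each array.

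Genes named are the 15 largest rises and 15 largest falls with separate arrays, 20 key genes, up to 4 called members of each of the 34 lists and members against their list's majority. The comparison and lists were chosen with earlier results of these data known, and lists share members. The background guide was chosen after the data were examined.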

Additional observations from a re-analysis of the deposited data

Results flagged for a closer look

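The change from quiescent differed between 2 and 4 weeks of CCl4 for 10 of the genes named above, by limma's test of the 4-week minus 2-week difference. It was lower at 4 weeks for Atp6v0d2 (-2.57), Cd68 (-1.41), Mmp12 (-1.26), Ctss (-1.22), Mcm6 (-1.16), Vsig4 (-3.42), Clec12a (-1.93), C1qb (-1.65) and Csf1r (-1.13), and higher for Chst11 (1.35), all on the log2 scale. Both 4-week arrays lay beyond both 2-week arrays for each of these genes. None of these calls held in each fit that left out an array.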

How the results depend on the processing

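Counts of called genes moved with the arrays in the fit. Rises (520) numbered 227 and falls (538) 145 with only the 4 arrays compared, and 309 and 296 with a log2 change of at least 1. Leaving out 1 array gave 190 to 633 rises and 70 to 797 falls. The 4-week against 2-week count (19) was 0 with the 6 unseeded arrays, 9 with the replicate block and 0 to 85 with 1 array left out. The count for culture against 2 weeks (4084) was 1917 with the fold threshold and 2427 to 4608 with 1 array left out. The replicate block left 453 rises and 453 falls. Trend and robust variance, averaged probe sets, the level filter (11410 genes) and centred arrays kept rises between 527 and 605 and falls between 531 and 611. Dropping arrays lowers the degrees of freedom by construction. Dropping an array of a group outside a comparison leaves the differences of that comparison unchanged. It alters only the estimated spread and the degrees of freedom. This holds for the 4-week against 2-week count without either quiescent array. For other shifts the cause was not tested. Signs turned only for key genes that were not past the threshold and whose arrays overlapped. With arrays apart, as for all called genes, leaving out 1 array could not turn a sign. Leaving out 1 array gave a range of -0.4 to 0.37 for Adgre1, -0.31 to 0.15 for Ccn2 and -0.11 to 0.04 for Des. The range was -0.26 to 0.08 for Lrat, -0.04 to 0.29 for Mki67 and -0.13 to 0.09 for Yap1. Averaged probe sets gave Yap1 0.07. List counts under these settings were added after the data were seen, and leaving out 1 array moved 48 of the 68 by over 1.5 times at least once.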

Other observations

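Beside the lists, 91 rises and 51 falls outside all of them were called in each fit that left out 1 array. The genes named from here were chosen after their values were seen, and each was also called in the other fits that tested it except where stated (Hnmt, under the level filter, was not tested). Several rises concern cell surface and hyaluronan genes. Cd44, the hyaluronan receptor, went from 5.71 and 6.02 to 7.68 and 7.39 (1.68 ± 0.18), Has1, a hyaluronan synthase, from 4.68 and 4.69 to 6.51 and 6.17 (1.65 ± 0.18), and Tnfaip6, whose product modifies hyaluronan, from 7.09 and 6.50 to 9.44 and 9.55 (2.70 ± 0.20). Pdpn, the mucin-type glycoprotein podoplanin, changed by 2.16 ± 0.19, and Gpc3, a heparan sulfate proteoglycan, by 1.97 ± 0.22. Has1 lay under the background guide of 4.75 on both quiescent arrays, so the change is set against a level not above background. Ugdh, which makes the sugar donor for hyaluronan and chondroitin sulfate, rose by 1.12 ± 0.14. Prrx1, a mesenchymal transcription factor, went from 5.48 and 5.26 to 7.96 and 8.15 (2.68 ± 0.17), and Zfp469, a zinc finger gene linked to collagen fibrils of the cornea, from 4.89 and 4.59 to 7.43 and 7.17 (2.56 ± 0.17). Hk2, a hexokinase of the first step of glycolysis, rose by 2.57 ± 0.17, S100a4, a fibroblast calcium-binding protein, by 2.58 ± 0.19, and Htr2a, a serotonin receptor, by 2.45 ± 0.31.

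Falls outside the lists included feedback inhibitors of receptor tyrosine kinase signalling, Spry1 (-1.44 ± 0.18) and Spred2 (-1.01 ± 0.13). Npr1, the receptor for atrial natriuretic peptide, went from 7.29 and 7.02 to 5.89 and 5.93 (-1.25 ± 0.14), and Ptger2, a prostaglandin E2 receptor, changed by -1.68 ± 0.20. Enzymes among the falls were Aldh2 (-1.48 ± 0.15), the mitochondrial aldehyde dehydrogenase, Hnmt (-1.90 ± 0.16), which inactivates histamine, and Ggt5 (-1.93 ± 0.26), a gamma-glutamyl transferase that acts on leukotrienes. Hnmt lay under the background guide of 4.75 on both 2-week arrays, so the change is set against a level not above background. Mapt, which encodes tau, changed by -2.27 ± 0.16 and Nrxn2, a neurexin, by -2.14 ± 0.21. Cyfip2, a regulator of actin assembly, went from 7.97 and 7.37 to 4.69 and 5.01 (-2.82 ± 0.25). Fcna, a ficolin of macrophages, and Adgre4, an adhesion receptor of myeloid cells, changed by -2.54 ± 0.20 and -2.44 ± 0.22, beside the macrophage marker levels given above, whose part was not tested.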
